A study of Mus musculus with 15 samples.

Results

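The purinergic receptor genes are the genes for the cell surface receptors that respond to extracellular nucleotides such as ATP, ADP and UTP. They were taken by name: the 10 symbols P2rx2, P2rx3, P2rx4, P2rx5, P2rx6, P2rx7, P2ry1, P2ry2, P2ry12 and P2ry14 were matched to 10 of the 55573 genes of the count table. All 10 passed the filter on low counts, as did 16567 genes of the whole table.

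The samples were right trigeminal ganglia (TG), the sensory ganglia whose neurons supply the cornea, from male CD1 mice aged 10 weeks. In every mouse the epithelium and anterior stroma of the right cornea had been removed within a 2 mm circle, and the eye was then treated 3 times a day until the ganglion was collected on day 12. There were 3 groups of 5 ganglia. The vehicle group received no lipid. The RvD6-standard group received resolvin D6, a lipid mediator made from docosahexaenoic acid, as the reference compound. The RvD6-isomer group received a lipid purified from mouse tears and corneal culture medium that the study describes as a stereoisomer of resolvin D6. All 3 groups were injured, so each comparison is between treatments of an injured eye, and uninjured ganglia were not analysed here. A whole ganglion holds neurons of all branches of the nerve with their glia, and only some of those neurons reach the cornea.

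P2X receptors are ATP-gated cation channels built from 3 subunits, and P2Y receptors are G protein-coupled receptors. In sensory ganglia P2X3, alone or together with P2X2, lets ATP released from damaged or stretched tissue depolarize nociceptors. P2X4 and P2X7 are best known from microglia and macrophages, P2X7 also from satellite glial cells, and P2Y12 from platelets and microglia. P2Y1 and P2Y2 couple nucleotides to phospholipase C and calcium release in neurons and glia. P2Y12 and P2Y14 couple to inhibitory G proteins.

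On the GRCm38 build, P2rx3 (ENSMUSG00000027071.14) lies on the minus strand of chromosome 2 from 84998583 to 85037462. P2ry1 (ENSMUSG00000027765.6) lies on the plus strand of chromosome 3 from 61002795 to 61008982, and P2ry12 (ENSMUSG00000036353.13) on its minus strand from 59216272 to 59262871, next to P2ry14 from 59113855 to 59153618. P2rx7 and P2rx4 are neighbours on the plus strand of chromosome 5, from 122643911 to 122691432 and from 122707544 to 122729738, and P2rx2 lies on the same chromosome from 110339812 to 110343212. P2rx6 (ENSMUSG00000022758.14) lies on the plus strand of chromosome 16 from 17561885 to 17577800. Counts were taken over the exons of each gene, and the exonic length ran from 2395 bases in P2rx5 to 11059 bases in P2ry14.

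Library depth ranged from 4125962 to 9903396 reads assigned to genes, with a median of 7756538. Markers of neurons, satellite glia and Schwann cells were detected in every library, with no gene of these 3 lists at 0 reads in any sample. Genes of other tissues differed between libraries, and some of them also between groups. The level of a gene is given as RPKM, that is, reads scaled to the length of its exons in kilobases and to the size of the library, and the summed level of 8 neutrophil precursor genes was 115 to 592 in vehicle, 729 to 2319 in RvD6-standard and 52.7 to 2198 in RvD6-isomer. The summed level of 6 erythroid genes was 3135 to 6659 in vehicle, 7542 to 13911 in RvD6-standard and 1228 to 15913 in RvD6-isomer. In both lists every RvD6-standard library lay above every vehicle library. The highest RvD6-isomer value of both lists belonged to replicate 15, the shallowest library of the series. The summed level of 6 skeletal muscle genes was 8.55 to 78.0 in vehicle, 35.6 to 1100 in RvD6-standard and 4.52 to 14.7 in RvD6-isomer. The summed level of 5 B cell genes was 5.72 to 49.6, 38.5 to 101 and 15.6 to 83.0 in the same order of groups, and that of 5 endothelial genes was 43.3 to 96.4, 55.1 to 67.2 and 52.7 to 68.0. The part of these differences in the receptor values was not tested beyond the fits without single libraries and with the neutrophil precursor or muscle score as a covariate. The labels name no batch.

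The first question was which of the receptors the injured ganglion expressed, and in what order. P2rx3 had the highest level, 16.5 ± 3.60 RPKM (SD over 15 samples), above 79.9% of all genes tested. P2ry2 followed at 10.3 ± 1.89, P2ry1 at 8.51 ± 2.81, P2rx5 at 7.56 ± 2.97, P2rx6 at 7.42 ± 1.87 and P2ry12 at 5.85 ± 2.36. The lower part of the order was P2rx7 at 4.46 ± 1.06, P2rx4 at 3.26 ± 0.892, P2rx2 at 0.775 ± 0.776 and P2ry14 at 0.602 ± 0.321, the last above 10.2% of all genes tested. P2rx3 lay above P2ry2 in 15 of 15 samples. P2rx7 lay above P2rx4, and P2rx4 above P2rx2, in 14 of 15 samples each. Neighbours in the middle of the order were not separated beyond the spread of the samples: P2ry1 was above P2rx5 in 9 of 15 samples and P2rx5 above P2rx6 in 8 of 15. P2rx2 and P2ry14 at the bottom exchanged places as well, P2rx2 being above in 7 of 15. Levels were divided by the full exonic length, of which P2ry1 shares 23.1% and P2rx6 13.9% with genes on the opposite strand. What this sharing does to their places in the order was not tested. The order of the means was unchanged for all 10 genes when levels were expressed as TPM, which scales every library to the same summed level. TPM rescales all genes of a library alike, so it could not change the order within a sample and is no separate check of it.

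**Figure D1:**
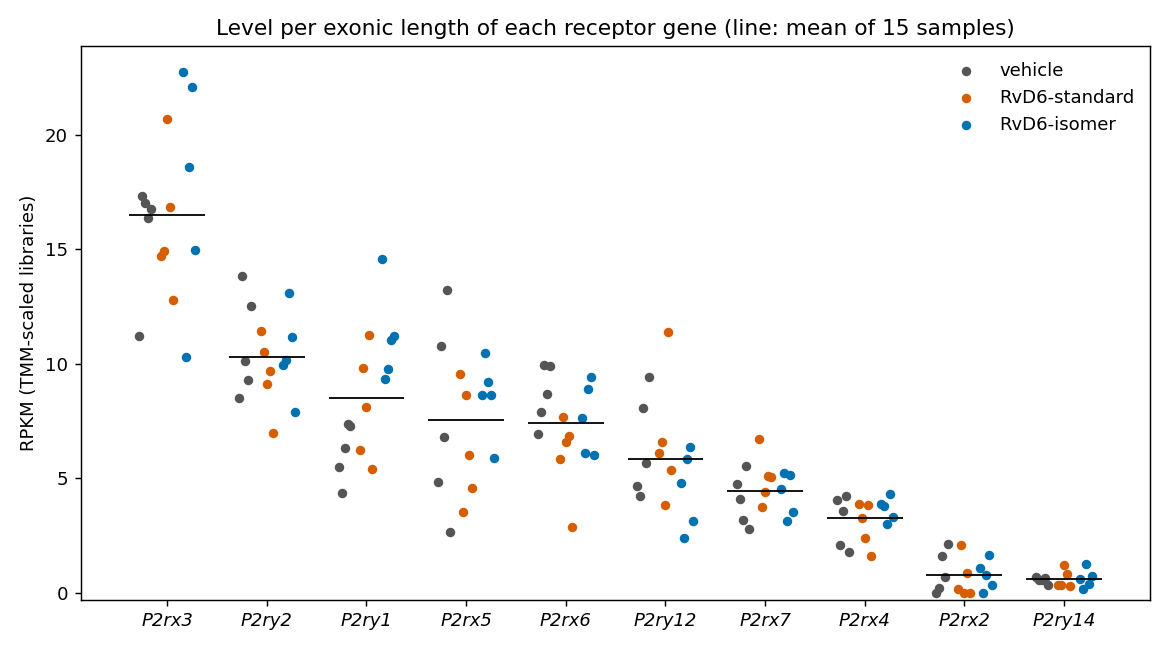
Level of each receptor gene in RPKM (vertical axis), with 1 point per sample coloured by group and a line at the mean of 15 samples. P2rx3 stood above the other genes at a mean of 16.5, while P2rx2 and P2ry14 lay at 0.775 and 0.602.

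The second question was which receptor genes differed between the treatments. The one receptor gene that DESeq2 called was P2ry1, which was higher in RvD6-isomer than in vehicle, and edgeR called none. By edgeR's quasi-likelihood test with Benjamini-Hochberg adjustment over 16567 genes, 0 of 10 receptor genes changed in RvD6-isomer against vehicle, where 0.67% of all genes were called. The count was also 0 of 10 in RvD6-standard against vehicle (0% of all genes called) and 0 of 10 in RvD6-isomer against RvD6-standard (0.235% called). At an unadjusted p below 0.05 by edgeR the counts were 1 (P2ry1, higher), 1 (P2rx6, lower) and 0 of 10, beside 16%, 13.6% and 8.82% of all genes. In RvD6-isomer against vehicle DESeq2 gave no adjusted p for P2rx2 and P2ry14, and of the 8 receptor genes it adjusted it called 1 (P2ry1, higher), beside 8.13% of all genes it adjusted. It called 0 of 10 in RvD6-standard against vehicle and between the lipids, where it called 1.92% and 0.936%. The samples of the groups did not overlap for 1 receptor gene, P2ry1 in RvD6-isomer against vehicle, beside 4.88% of all genes in that comparison. No receptor gene was free of overlap in RvD6-standard against vehicle or in RvD6-isomer against RvD6-standard, beside 3.72% and 1.74% of all genes. The median log2 fold change of the 10 genes was 0.13 in RvD6-isomer against vehicle, -0.020 in RvD6-standard against vehicle and 0.22 between the lipids, and that of all genes tested was 0.015, 0.024 and -0.0039. The first pair of comparisons shares its vehicle samples, and each lipid's samples serve in a pair of comparisons.

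**Figure D2:**
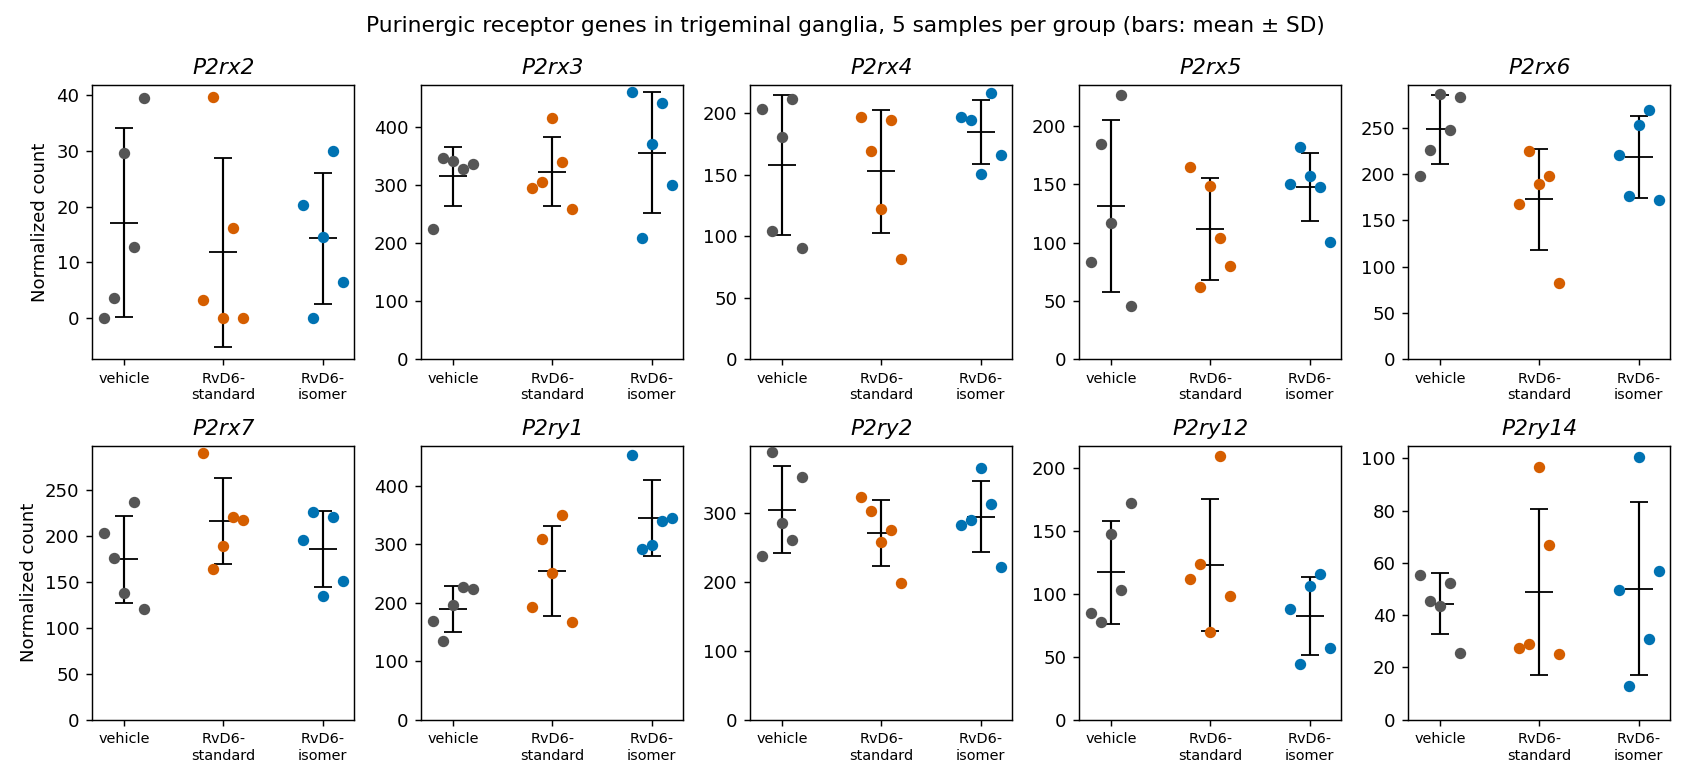
Normalized counts (vertical axes, each with its own range) of the 10 receptor genes in 5 samples per group, with bars at the mean ± SD. The groups overlapped in every panel except P2ry1, where the 5 RvD6-isomer samples (292 to 453) lay above the 5 vehicle samples (134 to 226).

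Of the channel subunits, P2rx3, the ATP-gated subunit typical of nociceptors, is described first. Values by sample are normalized counts, that is, reads divided by the size factor of the library. P2rx3 stood at 224, 346, 342, 327 and 336 in the vehicle samples, at 296, 306, 415, 340 and 258 in the RvD6-standard samples and at 460, 208, 370, 441 and 299 in the RvD6-isomer samples. The groups overlapped throughout, and both the highest and the lowest sample of the series came from the RvD6-isomer group. The means were 315 ± 51.2, 323 ± 59.2 and 356 ± 104 (SD). The log2 fold change was 0.17 in RvD6-isomer against vehicle (95% interval -0.27 to 0.61, edgeR adjusted p = 0.743) and 0.020 in RvD6-standard against vehicle (-0.42 to 0.46, adjusted p = 0.977). P2rx3 made up 39.4% ± 5.10 of the summed level of the 6 P2X genes in vehicle, 43.4% ± 4.99 in RvD6-standard and 41.1% ± 7.10 in RvD6-isomer.

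P2rx2, whose product joins P2X3 in a heteromeric channel, was sparse. It had 0, 4, 37, 13 and 48 reads in the vehicle samples, 4, 44, 0, 13 and 0 in the RvD6-standard samples and 18, 0, 16, 29 and 4 in the RvD6-isomer samples. Each group held at least 1 sample at 0 reads and at least 1 sample above 25, and the deepest library of the series, vehicle replicate 1, was among those at 0. The 95% interval of its log2 fold change ran from -2.76 to 2.25 in RvD6-isomer against vehicle and from -3.06 to 1.97 in RvD6-standard against vehicle. The log2 ratio of P2rx2 to P2rx3 per length, with 0.5 reads added to each gene, averaged -5.27 ± 2.54 in vehicle, -6.26 ± 2.78 in RvD6-standard and -5.35 ± 2.06 in RvD6-isomer. The ratio did not pass an exact two-sided permutation test over the samples in any of the 3 comparisons (p = 0.952 for RvD6-isomer against vehicle, 0.619 for RvD6-standard against vehicle and 0.587 between the lipids, adjusted 0.952, 0.929 and 0.929).

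P2rx6 encodes a subunit that forms few functional channels on its own. Among the 6 P2X genes of the 10 receptors, only P2rx6 had an unadjusted p below 0.05 by edgeR in any of the 3 comparisons. Its normalized counts were 198, 226, 286, 248 and 284 in vehicle, 168, 225, 189, 198 and 82.5 in RvD6-standard and 221, 176, 253, 270 and 172 in RvD6-isomer. The RvD6-standard samples lay low, and replicate 10 was the lowest of the series, but 2 of them reached the range of the vehicle samples. The means were 248 ± 37.8, 173 ± 54.4 and 219 ± 44.0 (SD). The log2 fold change in RvD6-standard against vehicle was -0.54 (SE 0.23, 95% interval -1.03 to -0.052), and edgeR's quasi-likelihood test gave an adjusted p of 0.321. Before adjustment by edgeR its p was 0.0321. Without RvD6-standard replicate 10 it was -0.36 with an adjusted p of 0.522. The summed level of 10 sensory neuron genes moved the same way, with 4663 to 5220 in vehicle, 2625 to 4791 in RvD6-standard and 4147 to 5349 in RvD6-isomer, and 0 of the 10 were called in any comparison, although 4 were lower in RvD6-standard against vehicle at an unadjusted p below 0.05, beside 13.6% of all genes in either direction. Its part in the P2rx6 value was not tested. In bulk ganglia, fewer cells of a type and less RNA per cell cannot be told apart. P2rx6 shares 554 exonic bases, 13.9% of its exonic length, with Slc7a4 on the opposite strand, and the library type does not mark strand. Slc7a4, a member of the cationic amino acid transporter family, had a log2 fold change of -0.34 in the same comparison (adjusted p = 0.732).

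The other P2X genes among the 10 receptors gave no difference that passed a test. P2rx5 ranged from 45.2 to 226 in vehicle, 62.2 to 165 in RvD6-standard and 101 to 182 in RvD6-isomer, so that the vehicle samples alone spanned the whole series. Its log2 fold changes were 0.17 in RvD6-isomer against vehicle and -0.24 in RvD6-standard against vehicle. P2rx4, an ATP-gated channel of macrophages and neurons, ranged from 90.5 to 212, 81.5 to 197 and 151 to 216 in the same order of groups, with log2 fold changes of 0.22 and -0.060. The lowest RvD6-isomer value of P2rx4 lay above 2 vehicle samples and 2 RvD6-standard samples. P2rx7, the channel that opens a large pore at high ATP, ranged from 120 to 236, 164 to 289 and 134 to 226, with log2 fold changes of 0.084 and 0.30. The adjusted p of these 3 genes by edgeR lay between 0.600 and 0.951 in the comparisons with vehicle. A shared stretch of 119 exonic bases joins P2rx7 with the microRNA gene Mir8115, which had 0 reads in every sample.

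P2ry1 encodes the ADP receptor that couples to Gq and phospholipase C, and it showed the clearest difference of the group. Its normalized counts were 169, 134, 196, 226 and 224 in the vehicle samples, 192, 310, 251, 350 and 167 in the RvD6-standard samples and 453, 292, 298, 339 and 345 in the RvD6-isomer samples. Every RvD6-isomer sample lay above every vehicle sample, while the RvD6-standard samples spread over both ranges. The means were 190 ± 38.9, 254 ± 76.9 and 345 ± 64.6 (SD). The log2 fold change in RvD6-isomer against vehicle was 0.86 (SE 0.22, 95% interval 0.40 to 1.32). Its p of 0.001 by edgeR became 0.067 after adjustment over all genes and missed the threshold of 0.05, while DESeq2 gave an adjusted p of 0.0056. Removing any 1 of the 15 samples left the log2 fold change between 0.75 and 0.93 and the edgeR adjusted p between 0.0537 and 0.193. With at least 10 counts required in every sample, which leaves fewer genes to adjust for, the edgeR adjusted p was 0.0417.

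In RvD6-standard against vehicle the log2 fold change of P2ry1 was 0.40 (SE 0.22, 95% interval -0.053 to 0.86, edgeR adjusted p = 0.432). Between the lipids it was 0.45 (SE 0.22, interval -0.0012 to 0.91, adjusted p = 0.568), so a difference between RvD6-isomer and RvD6-standard was not shown for P2ry1. P2ry1 is also a receptor of platelets, and the summed level of 7 platelet genes was 19.4 to 57.1 in vehicle, 70.9 to 167 in RvD6-standard and 12.5 to 207 in RvD6-isomer. The highest of these belonged to RvD6-isomer replicate 15. Without that library the log2 fold change of P2ry1 in RvD6-isomer against vehicle was 0.86 (edgeR adjusted p = 0.0862). The 4 other RvD6-isomer libraries had platelet sums of 12.5 to 21.4 and P2ry1 values from 292 to 453. The part of platelets in the P2ry1 values was not tested. With the neutrophil precursor score or the muscle score as a covariate, the log2 fold change was 0.87 and 0.93, with adjusted p of 0.0899 and 0.0756. P2ry1 shares 992 exonic bases, 23.1% of its exonic length, with Gm37035 on the opposite strand, a gene that held 0 to 25 reads per sample and 46, 27 and 20 reads in all in vehicle, RvD6-standard and RvD6-isomer.

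The other P2Y genes stayed within the spread of the samples. P2ry2, the receptor for ATP and UTP, ranged from 239 to 389 in vehicle, 198 to 324 in RvD6-standard and 223 to 366 in RvD6-isomer. Its intervals were the narrowest of the group, with a log2 fold change of -0.052 in RvD6-isomer against vehicle (95% interval -0.44 to 0.34) and -0.18 in RvD6-standard against vehicle (-0.58 to 0.21). P2ry14, the receptor for UDP-glucose, had 16 to 110 reads per sample and means of 44.4 ± 11.7, 49.0 ± 31.8 and 50.2 ± 32.9 normalized counts in vehicle, RvD6-standard and RvD6-isomer. The highest value of P2ry14 came from RvD6-isomer replicate 13 and the lowest from RvD6-isomer replicate 12, so the treated samples enclosed the vehicle samples.

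P2ry12, the ADP receptor of platelets and microglia, had the lowest fold change of the P2Y genes in RvD6-isomer. Its normalized counts were 85.1, 77.4, 148, 103 and 172 in vehicle, 112, 123, 70.0, 209 and 98.7 in RvD6-standard and 88.1, 43.9, 106, 116 and 56.9 in RvD6-isomer. The groups overlapped, and the pair of lowest samples, replicates 12 and 15, belonged to RvD6-isomer. The log2 fold change was -0.51 in RvD6-isomer against vehicle (SE 0.33, 95% interval -1.21 to 0.19, edgeR adjusted p = 0.478) and 0.053 in RvD6-standard against vehicle. The summed level of 12 macrophage genes was 104 to 138 in vehicle, 110 to 161 in RvD6-standard and 69.8 to 150 in RvD6-isomer. Of these 12, edgeR called 0 in any comparison. DESeq2, which adjusted 8 of the 12 in RvD6-isomer against vehicle, called 1 in all, beside 1.92% of all genes in its comparison, the lysosomal protein gene Cd68, higher in RvD6-standard against vehicle (log2 fold change 1.45, DESeq2 adjusted p = 0.0272). At an unadjusted p below 0.05 by edgeR, 1 of the 12 was higher and 1 lower in RvD6-isomer against vehicle, beside 16% of all genes. In RvD6-standard against vehicle 3 were higher and 0 lower, beside 13.6% of all genes. Between the lipids 0 were higher and 4 lower in RvD6-isomer, beside 8.82%. The part of macrophages in the P2ry12 values was not tested. Defining macrophage genes were not all detected in every library, Itgam being at 0 reads in 4 samples and Tmem119 in 1. P2ry12 shares 9 exonic bases with Med12l on the opposite strand.

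**Figure D3:**
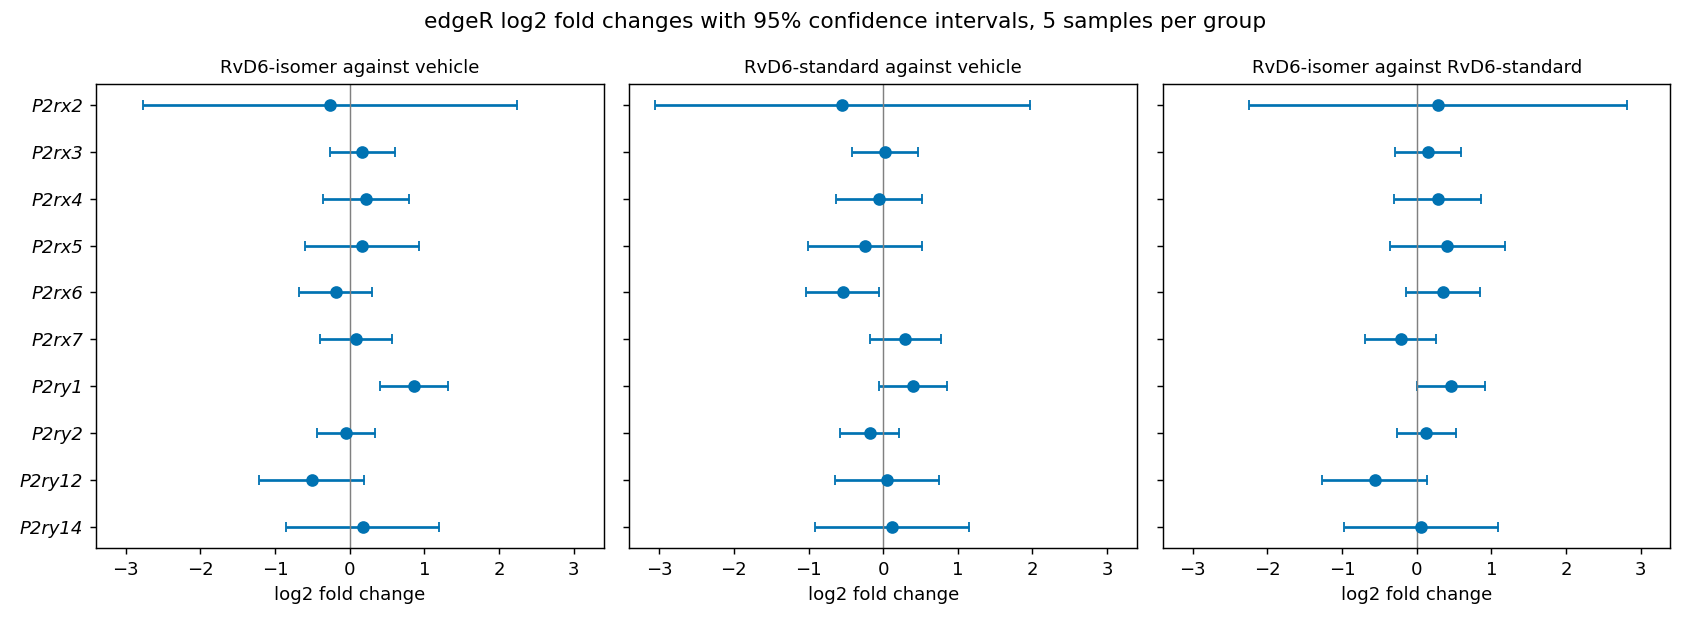
edgeR log2 fold changes (horizontal axes) of the 10 receptor genes in the 3 comparisons, with 95% confidence intervals as bars. In RvD6-isomer against vehicle the interval of P2ry1 (0.40 to 1.32) excluded 0, in RvD6-standard against vehicle that of P2rx6 (-1.03 to -0.052) did, and every interval included 0 between the lipids.

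The stereoisomers were also compared with each other for all 10 genes, at the same schedule and day. No receptor gene differed between RvD6-isomer and RvD6-standard at an unadjusted p below 0.05 by edgeR. P2ry1 came nearest, with an unadjusted p of 0.0506 by edgeR (95% interval of the log2 difference -0.0012 to 0.91). By DESeq2 its unadjusted p was 0.0485 and its adjusted p 0.490. The differences were bounded unequally. For P2ry2 the 95% interval of the log2 difference was -0.26 to 0.52, for P2rx3 -0.29 to 0.59 and for P2rx7 -0.69 to 0.26. For P2ry12 it was -1.27 to 0.14, and for P2rx5 -0.36 to 1.18, so differences of 2-fold were within the interval of these genes. For P2ry14 it was -0.98 to 1.09 and for P2rx2 -2.25 to 2.82, the widest of the 10.

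Receptors of this kind work with proteins that release ATP, ectonucleotidases that degrade it to adenosine, transporters that take adenosine up, adenosine receptors and the G proteins and phospholipases downstream. Of 10 further nucleotide and adenosine receptor genes, 6 passed the filter and edgeR called 0 in any comparison. DESeq2 also called 0, but in RvD6-isomer against vehicle it adjusted only Adora1 of the 6. At an unadjusted p below 0.05 by edgeR, 0 passed in RvD6-isomer against vehicle, beside 16% of all genes. In RvD6-standard against vehicle 1 passed, beside 13.6%, and 2 passed between the lipids, beside 8.82%. These 2 were P2rx1, lower in RvD6-isomer than in RvD6-standard (log2 difference -3.59), and Adora1, higher (0.41). Adora1, the inhibitory adenosine receptor, was the highest of the 6 at 11.9 ± 2.53 RPKM. Its log2 fold change was -0.38 in RvD6-standard against vehicle (unadjusted p = 0.047, edgeR adjusted p = 0.362) and 0.038 in RvD6-isomer against vehicle. The platelet channel gene P2rx1 had a mean of 21.8 ± 20.6 normalized counts in RvD6-standard against 4.48 ± 8.47 in vehicle and 1.98 ± 2.92 in RvD6-isomer, and it was at 0 reads in 6 of 15 samples. P2ry13, an ADP receptor of myeloid cells, and Adora2a, the stimulatory adenosine receptor, had log2 fold changes of 2.17 and 0.92 in RvD6-isomer against vehicle, with edgeR adjusted p of 0.406 and 0.536.

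Of the 9 ectonucleotidase genes tested, 1 rose in RvD6-isomer against vehicle by edgeR, beside 0.67% of all genes called, and 0 were called in the other comparisons. Alpl, tissue-nonspecific alkaline phosphatase, which removes phosphates from ATP down to adenosine, averaged 91.1 ± 13.2 normalized counts in vehicle, 210 ± 44.0 in RvD6-standard and 175 ± 19.8 in RvD6-isomer. The samples of both lipid groups (147 to 267 and 145 to 199) lay above all vehicle samples (73.8 to 105). The log2 fold change was 0.93 in RvD6-isomer against vehicle (SE 0.20, edgeR adjusted p = 0.0363) and 1.19 in RvD6-standard against vehicle (SE 0.20, adjusted p = 0.0784). DESeq2 called Alpl in both comparisons with vehicle, beside 8.13% of all genes with RvD6-isomer and 1.92% with RvD6-standard. In RvD6-isomer against vehicle, where it adjusted 7 of the 9, DESeq2 also called Acpp, the prostatic acid phosphatase that makes adenosine in nociceptors, with a log2 fold change of 0.63 (DESeq2 adjusted p = 0.0136, edgeR adjusted p = 0.0873). Its RvD6-isomer samples (719 to 985) lay above its vehicle samples (441 to 678). Nt5e, the CD73 enzyme that makes adenosine from AMP, had a log2 fold change of 1.01 in the same comparison with overlapping groups (adjusted p = 0.210). Entpd3, the most abundant of the list at 22.9 ± 7.50 RPKM, had a log2 fold change of 0.27 (adjusted p = 0.639).

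Of the 9 genes for ATP release that were tested, edgeR called 0 in any comparison. DESeq2, which adjusted 5 of the 9 in RvD6-isomer against vehicle, called 1 there, beside 8.13% of all genes. Gja1, the connexin of satellite glial cells, had a log2 fold change of 1.24 in RvD6-isomer against vehicle (SE 0.38, edgeR adjusted p = 0.112, DESeq2 adjusted p = 0.0212), with RvD6-isomer samples from 158 to 341 normalized counts and vehicle samples from 57.8 to 146. Lrrc8a, a subunit of volume-regulated anion channels, had a log2 fold change of 1.27 in RvD6-isomer against vehicle with overlapping groups (edgeR adjusted p = 0.213), and Calhm2, a relative of the ATP-releasing channel Calhm1, had one of -0.77 (adjusted p = 0.513). The highest levels of the list were those of Vdac1, the mitochondrial porin, at 181 ± 37.9 RPKM, and of Panx1, the pannexin channel, at 18.2 ± 3.95. Their log2 fold changes were -0.089 and -0.24 in RvD6-isomer against vehicle and -0.32 and -0.44 in RvD6-standard against vehicle (adjusted p = 0.424 and 0.299). Of the 5 nucleoside uptake and adenosine kinase genes tested, edgeR called 0 and DESeq2 called 1 between the lipids, beside 0.936% of all genes. Slc29a4, a transporter of adenosine and monoamines, had a log2 difference of 1.48 between RvD6-isomer and RvD6-standard (SE 0.31, edgeR adjusted p = 0.0531, DESeq2 adjusted p = 0.0009). Its RvD6-isomer samples (62.1 to 129) lay above its RvD6-standard samples (25.2 to 39.7). Adk, adenosine kinase, had the highest level at 25.4 ± 4.74 RPKM and log2 fold changes of -0.028 in RvD6-isomer and -0.30 in RvD6-standard against vehicle (adjusted p = 0.956 and 0.424). The equilibrative transporter genes Slc29a1 and Slc29a3 had log2 fold changes of 0.16 and 0.095 in RvD6-isomer against vehicle (adjusted p = 0.721 and 0.861).

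Of the 13 G protein, phospholipase C and inositol trisphosphate receptor genes tested, 1 rose in RvD6-isomer against vehicle by edgeR, beside 0.67% of all genes called, and 0 were called in the other comparisons. Gnai3, an inhibitory G protein subunit of the kind that P2Y12 and P2Y14 use, averaged 409 ± 93.6 normalized counts in vehicle, 642 ± 170 in RvD6-standard and 750 ± 72.2 in RvD6-isomer. Its RvD6-isomer samples (679 to 855) lay above its vehicle samples (312 to 563), and the log2 fold change was 0.87 (SE 0.18, edgeR adjusted p = 0.0363). DESeq2 also called Gnai1 in that comparison (log2 fold change 0.49, DESeq2 adjusted p = 0.0202), where it called 8.13% of all genes, and Gnai3 in RvD6-standard against vehicle (0.64, DESeq2 adjusted p = 0.0372), where it called 1.92%. Gnai2, the most abundant of the list at 41.9 ± 9.96 RPKM, lay in the other direction in RvD6-isomer against vehicle, with a log2 fold change of -0.33 (edgeR adjusted p = 0.445). Itpr3, an inositol trisphosphate receptor that releases calcium downstream of phospholipase C, had a log2 fold change of 0.62 in RvD6-isomer and 0.61 in RvD6-standard against vehicle (adjusted p = 0.193 and 0.270).

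**Figure D4:**
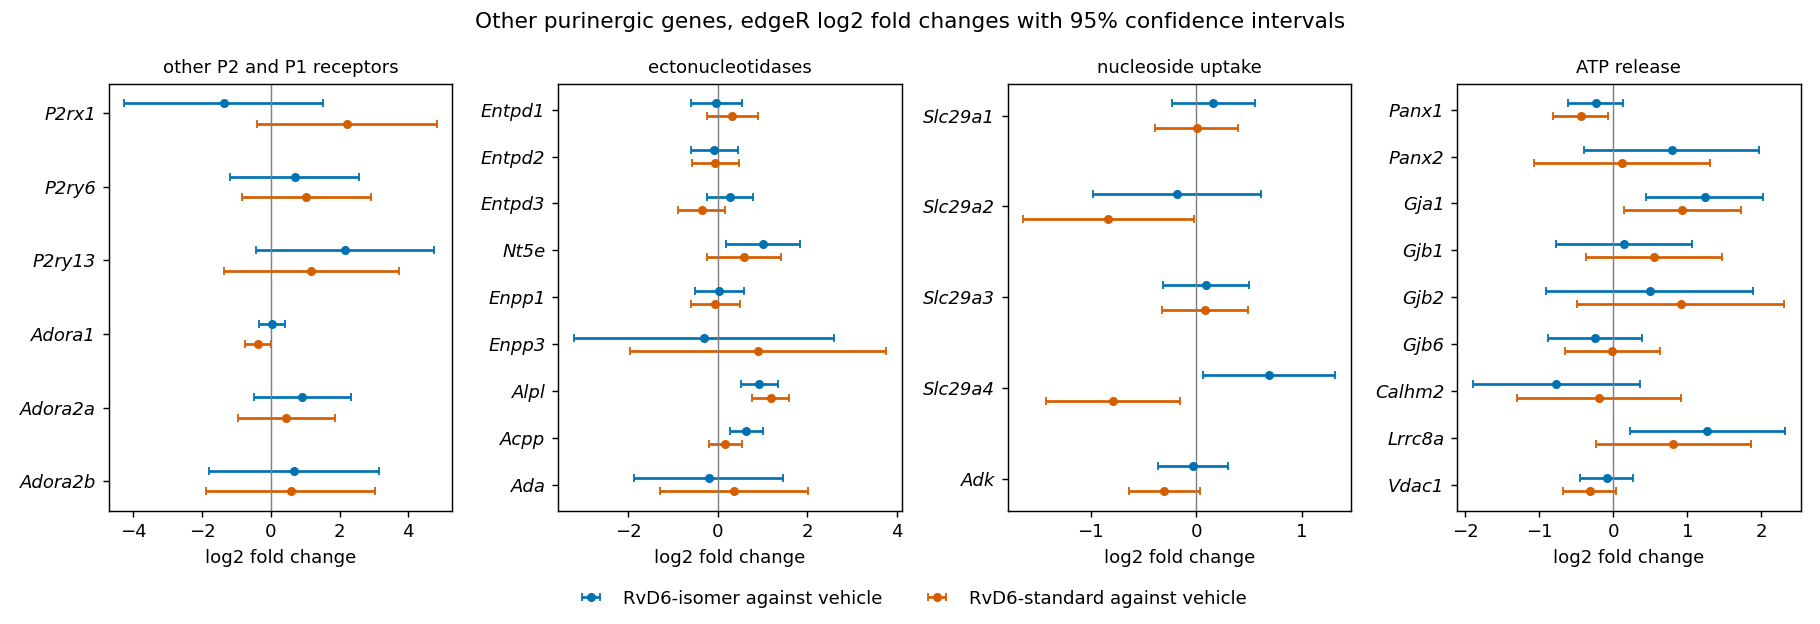
edgeR log2 fold changes (horizontal axes) with 95% confidence intervals for other genes of nucleotide signalling that passed the filter, in RvD6-isomer and RvD6-standard against vehicle. Alpl lay at 0.93 and 1.19 and Gja1 at 1.24 and 0.93, while the interval of P2rx1 included 0 in both comparisons.

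The cell types that carry the receptors were described by their own lists. Of 10 nonpeptidergic nociceptor genes, the neurons that hold most P2X3, edgeR called 0 in any comparison, and DESeq2 called 1 of the 8 it adjusted in RvD6-isomer against vehicle, beside 8.13% of all genes, the growth factor receptor gene Ret (log2 fold change 0.51, DESeq2 adjusted p = 0.0301). The summed level of this list was 166 to 210 in vehicle, 130 to 176 in RvD6-standard and 169 to 237 in RvD6-isomer. At an unadjusted p below 0.05 by edgeR, 2 of the 10 were higher in RvD6-isomer against vehicle, beside 16% of all genes. In RvD6-standard against vehicle 2 were lower, beside 13.6%, and 3 were higher in RvD6-isomer than in RvD6-standard, beside 8.82%. Of 6 peptidergic nociceptor genes, edgeR called 0 in any comparison. At an unadjusted p below 0.05, 3 of the 6 were lower in RvD6-standard against vehicle, beside 13.6% of all genes. In RvD6-isomer 1 was lower than in vehicle, beside 16%, and 1 higher than in RvD6-standard, beside 8.82%. DESeq2 called 1 in RvD6-isomer against vehicle, beside 8.13% of all genes, the substance P precursor Tac1 (log2 fold change -0.49, DESeq2 adjusted p = 0.0102). In the same comparison, beside the same 8.13%, DESeq2 called 1 of 6 satellite glial genes, Gja1, given above. It also called 1 of 6 Schwann cell genes there, the myelin gene Prx (0.83, DESeq2 adjusted p = 0.0063). DESeq2 called no other gene of these lists, and edgeR called 0 of either. At an unadjusted p below 0.05 by edgeR, 1 satellite glial gene was higher in RvD6-isomer against vehicle (Gja1) and 1 lower, beside 16% of all genes. The lower satellite glial gene was Glul (log2 fold change -0.68, edgeR adjusted p = 0.152). Of the 6 Schwann cell genes, 1 was higher and 1 lower in that comparison at the same unadjusted threshold, beside the same 16%. The summed level of the Schwann cell list was 4153 to 6262 in vehicle, 3555 to 5156 in RvD6-standard and 3504 to 5857 in RvD6-isomer. For the neutrophil precursor, erythroid, platelet, B cell and endothelial lists the count was 0 by both tools in every comparison, with DESeq2 adjusting 8 of 8, 4 of 6, 3 of 6, 2 of 5 and 3 of 5 of the tested genes in RvD6-isomer against vehicle. At an unadjusted p below 0.05, 8 of 8 neutrophil precursor and 6 of 6 erythroid genes were higher in RvD6-standard against vehicle, beside 13.6% of all genes in either direction. So were 3 of 6 platelet and 2 of 5 B cell genes, while of 5 endothelial genes 1 was higher and 1 lower. All 6 muscle genes were lower in RvD6-isomer than in RvD6-standard by edgeR and by DESeq2, beside 0.235% and 0.936% of all genes, and all 6 were higher in RvD6-standard than in vehicle by DESeq2, beside 1.92%.

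The genes whose profile over the 15 samples was most like that of a receptor were found by Pearson's r of log2 CPM, counts scaled to library size, as a description, with the samples' shared libraries as a common source. For P2ry1 they were Atp5s (r = 0.94), Dnajb4 (0.92) and Elavl4 (0.91), and with the group means removed r was 0.87, 0.83 and 0.79. Elavl4 is a neuronal RNA-binding protein gene, and Dnajb4 a chaperone gene. For P2rx3 they were Bbs12, Thtpa and Gls2, with r of 0.87, 0.87 and 0.86. For P2rx5 they were AV039307 (r = 0.85), Mrgpra3 (0.83), a receptor of itch-sensing neurons, and Abcb8 (0.82). For P2ry2 they were Mrgpra4 (0.79), a gene related to Mrgpra3, Oxa1l (0.79) and Dtx2 (0.78). For P2rx7 they were Fgfr2 (0.83), Rxra (0.81) and Gldc (0.80). These genes were picked as the highest of all genes tested. Among the receptors themselves r ran from -0.46 between P2rx2 and P2rx7 to 0.69 between P2rx2 and P2rx6.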

How the data were processed

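TG total RNA (1 ng per sample) was amplified by an adapted Smart-seq2 protocol, which does not mark strand, and sequenced for 75 cycles. The authors aligned the reads to GRCm38 (GENCODE M22) with RSubread and deposited raw counts per gene, made with featureCounts over exons. The header of the table names featureCounts 1.5.0-p1, and the submitters' processing notes name Subread 1.6.5. Gene symbols were matched by gene ID through GENCODE M21, which named 99.7% of the IDs and all 10 receptor genes. Amplification without molecular identifiers means that reads are not independent molecules.

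Genes were filtered with filterByExpr (minimum count 10, minimum total 15), scaled by TMM and tested with edgeR 4.0.16 (glmQLFit, glmQLFTest, R 4.3.3) in 1 fit of all 15 samples, with 3 contrasts and a threshold of 0.05 on the Benjamini-Hochberg adjusted p. The scripts were tested on simulated data. Normalized counts are counts divided by DESeq2 1.42.0 size factors. Levels are RPKM on TMM-scaled libraries. The P2rx2 to P2rx3 ratio was compared by an exact permutation test.

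The receptor genes and the gene lists were chosen with earlier results of these data known. Besides the 10 receptors, pathway genes were named if called by edgeR or DESeq2, if among the 3 lowest unadjusted p in RvD6-isomer against vehicle or the 2 highest levels of a list, if among the 3 genes most correlated with a receptor, or if they overlapped one; for the cell type lists only called genes are named, and likeness is given for 5 receptors. Marker genes at 0 reads (Itgam, Tmem119) and the satellite glial gene Glul were named after their values were seen. Nothing says whether the ganglia of a group came from mice treated independently of each other, so p-values measure the spread between these samples. Alternatives were DESeq2 with all samples or the compared groups, edgeR with the compared groups, RLE scaling, other filters, removal of a gene length trend, a pseudocount of 2 reads for the ratio and omission of each sample. Chosen after the data had been seen were covariates for neutrophil precursor and muscle scores. Sequences of the receptor proteins were not used here.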

Additional observations from a re-analysis of the deposited data

Results flagged for a closer look

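Of 30 groups of 5 samples examined (10 receptor genes in 3 groups), 1 held a sample that stood far from the others. In the vehicle group the lowest P2rx3 value was 224 normalized counts, and the nearest other vehicle sample was at 327. The gap was 0.841 of the range of the group, above Dixon's critical value of 0.71 for 5 samples. By chance about 1 in 20 groups is flagged in this way. Without that sample, vehicle replicate 1, the log2 fold change of P2rx3 by edgeR was 0.066 in RvD6-isomer against vehicle (adjusted p = 0.918) and -0.086 in RvD6-standard against vehicle (adjusted p = 0.893).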

How the results depend on the processing

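No paired analysis was possible because each replicate number belongs to a single group. The count of receptor genes changed in RvD6-isomer against vehicle was 1 (P2ry1) rather than 0 with DESeq2 on all samples, with DESeq2 on the compared groups and with at least 10 counts in every sample, a filter that removed P2rx2. With a gene length trend removed, P2ry1 had a log2 fold change of 0.76 (edgeR adjusted p = 0.103). Of 717 alternative values of the 30 single-gene fold changes, 672 kept direction and did not cross the threshold. A value without an adjusted p, as DESeq2 gave for P2rx2 and P2ry14 in RvD6-isomer against vehicle, was counted as not past it. A further 3 (P2ry1) passed the threshold and 42 changed sign, none of the 42 past the threshold. The cause of the sign changes was not tested. The length trend gave -0.043 for P2rx7 in RvD6-isomer against vehicle and -0.0087 for P2ry14 in RvD6-standard against vehicle. The muscle covariate, in RvD6-standard against vehicle, gave 0.32 for P2rx2, -0.17 for P2rx3, -0.18 for P2ry12 and -1.18 for P2ry14, and between the lipids -0.86 for P2rx2 and 0.14 for P2rx7. The neutrophil precursor covariate gave 0.10 for P2ry2 in RvD6-standard against vehicle, and between the lipids -0.21 for P2ry2 and -0.0052 for P2ry14. With each sample left out in turn, the ranges that included both signs in RvD6-isomer against vehicle were -0.72 to 0.32 for P2rx2, -0.041 to 0.46 for P2rx5, -0.016 to 0.22 for P2rx7, -0.15 to 0.045 for P2ry2, -0.26 to 0.43 for P2ry14 and -1.05 to 0.81 for the P2rx2 to P2rx3 ratio. In RvD6-standard against vehicle they were -1.83 to 0.018 for P2rx2, -0.091 to 0.090 for P2rx3, -0.21 to 0.10 for P2rx4, -0.46 to 0.042 for P2rx5, -0.23 to 0.23 for P2ry12 and -0.29 to 0.28 for P2ry14. Between the lipids they were -0.18 to 1.58 for P2rx2 and -0.38 to 0.47 for P2ry14. The fewest reads were those of P2rx2 and P2ry14, at 0 to 48 and 16 to 110 per sample.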
